A study of Schmidtea mediterranea with 18 samples.

Results

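Beta-catenin-1 knockdown fragments of the planarian Schmidtea mediterranea were followed through the opening days of regeneration, and days 4 to 6 were set against days 1 to 3. The members are the 6 Bcat RNAi libraries of the 18 in the series, taken by the treatment and day in their titles, 3 late and 3 early. All animals were of the asexual strain CIW4, a clonal line. They had 3 RNAi feeds, were cut 3 days after the last one, and polyA RNA was sequenced from the regenerating trunk pieces (the treatment protocol speaks of tail pieces). The other libraries are APC RNAi and Control RNAi (titled GFP RNAi), with 6 each at the same days. Each library is a pool of 3 biological replicates, so an SD given here is the spread over the 3 days of a period. A p-value for a change between periods rests on how well the days of a period agree. A p-value for a slope or bend over days rests on how closely the single days follow the fitted course. No p-value here measures how animals differ. The deposited files give transcripts by identifier without gene names, so no function is given to any of them, tissue markers could not be checked, and neither could the loss of beta-catenin-1 itself.

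Beta-catenin is the effector of canonical Wnt signalling: when the pathway is active it enters the nucleus and acts with TCF/LEF factors on target genes, and the apc protein is part of the complex that has it destroyed. In planarians Wnt signalling is high towards the tail and sets posterior identity. Animals without beta-catenin-1 regrow heads where tails should form, and animals without apc regrow tails where heads should form. After a cut, wound-response genes are switched on, stem cells divide and gather at the wound, and the missing parts are laid down over the following days, so a course over days in such pieces reads the wound response fading and new tissue appearing. In whole fragments, fewer cells of a type and less RNA per cell cannot be told apart.

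The 6 Bcat RNAi libraries held 41832966 to 57679076 aligned reads, and 35445 of 82955 transcripts had enough reads to be tested. The day 1 library stood furthest from the others. The SD of the log2 CPM difference (CPM, the usual read count per library size, here scaled by TMM) to the other 5 libraries averaged 0.387 for day 1 and 0.262 to 0.315 for the other days, over 18244 transcripts of at least 1 CPM. Counts of calls and named transcripts are therefore also given without day 1 where leaving it out changed them much. The group courses, day steps, abundance classes, overlaps and correlations further on are given with all 6 days only. Unaligned reads made up 5.61% ± 0.0877 in the late libraries and 5.12% ± 0.615 in the early ones, and transcripts below 1 CPM took 1.14% ± 0.186 of the reads late and 1.04% ± 0.0176 early (SD, n = 3 each). Both differences had an exact two-sided permutation p of 0.4, where 0.1 is the smallest that 3 against 3 can reach, and 0.667 after adjustment over 4 library measures.

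Late against early days asked which transcripts had settled at another level by days 4 to 6. Few were called by a test that treats the 3 days of a period as equal. By it 4 transcripts rose and 5 fell, 9 of 35445 or 0.0254% (edgeR quasi-likelihood test, adjusted p under 0.05). Of these, 1 rose and 3 fell at least 2-fold. By the same test 4025 of the 35445 had an unadjusted p under 0.05, so a short list of calls does not show that few changed. All 9 were also called by the slope over days described further on. Without the test, all 3 late days lay above all 3 early days for 2626 transcripts (7.41% of those tested) and below them for 2235 (6.31%). For days in random order, such separation in either direction has a probability of 0.1. Over the same transcripts control had 11.3% above and 13.4% below, and APC RNAi 8.95% and 3.97%. The count of 9 calls by the test rests on single libraries. Leaving out day 1, 2, 3, 5 or 6 gave 171, 3, 403, 25 and 2 calls in that order, and DESeq2 called 466.

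SmedASXL_068695 had the largest fall. It stood at 2.74, 0.331 and 0.165 CPM at days 4, 5 and 6, against 45.8, 33.2 and 18.3 CPM at days 1, 2 and 3. The periods did not overlap, and every day was lower than the one before. The late mean was 1.08 CPM ± 1.44 and the early mean 32.4 CPM ± 13.8 (SD, n = 3 each). By edgeR the late level stood -4.92 log2 units from the early one (SE 0.61, adjusted p = 0.0399). The number of reads was 130, 17 and 9 at days 4, 5 and 6, and the largest single-day step, -2.91 on the log2 scale with a prior count of 2, came between days 4 and 5. The adjusted p was 0.06 without day 2 and 0.0563 without day 5, and without day 4 the estimate was -7.02. It was 0.0663 with loess offsets, 0.119 with at least 1 CPM in 3 libraries and 0.0516 with library sizes summed after the filter.

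SmedASXL_072385 had the highest mean CPM among the eligible transcripts that fell at least 2-fold. It had 25.8, 28.4 and 22.6 CPM at days 4, 5 and 6, against 59.8, 48.1 and 49.3 CPM at days 1, 2 and 3. Its late days lay close together and well below its early ones, with means of 25.6 CPM ± 2.88 and 52.4 CPM ± 6.42 (SD, n = 3 each) and an edgeR estimate of -1.01 log2 units (SE 0.1, adjusted p = 0.0114). Most of this came in a single step between days 3 and 4, of -0.93 on the log2 scale. The call was kept without each of the 6 libraries in turn, though not when at least 1 CPM in 3 libraries was required (adjusted p = 0.0855). In control SmedASXL_072385 also had its late days below its early ones, by less, at 84.0, 74.9 and 64.01 CPM at days 4, 5 and 6, against 86.3, 87.5 and 87.8 CPM at days 1, 2 and 3. SmedASXL_072386, the next identifier, was also called late against early in Bcat RNAi, at -0.81 (SE 0.09, adjusted p = 0.0278, edgeR). Whether they share reads is not known.

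SmedASXL_080365 rose most among the eligible transcripts. Its values were 5.36, 7.58 and 7.23 CPM at days 4, 5 and 6, against 2.73, 3.34 and 3.40 CPM at days 1, 2 and 3. The means were 6.72 CPM ± 1.19 late and 3.16 CPM ± 0.371 early (SD, n = 3 each), 1.11 log2 units higher late by edgeR (SE 0.15, adjusted p = 0.0453). The periods did not overlap, and the largest step, 0.65, was from day 3 to day 4. In APC RNAi it never passed 0.467 CPM, and in control it had 2.16 CPM at day 1 and 0.394 to 0.671 CPM from day 2 on. Leaving out day 2, day 5 or day 6 gave adjusted p-values of 0.116, 0.0809 and 0.22. SmedASXL_080365 passed in 4 of 8 alternatives. Its adjusted p was 0.0709 with loess offsets, 0.0992 with at least 1 CPM in 3 libraries, 0.204 with all 18 libraries in the fit and 0.0516 with library sizes summed after the filter.

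SmedASXL_014633 was the next to rise, by the smallest p. It had 22.9, 22.5 and 26.5 CPM at days 4, 5 and 6, against 14.2, 14.8 and 14.0 CPM at days 1, 2 and 3. The early days were level and the change was a step of 0.70 between days 3 and 4. By edgeR the late level was 0.77 log2 units higher (SE 0.09, adjusted p = 0.0278). Leaving out day 2, day 4 or day 6 gave adjusted p-values of 0.104, 0.0656 and 0.182. SmedASXL_014633 was also lost with loess offsets (0.0663), at least 1 CPM in 3 libraries (0.0992) and library sizes summed after the filter (0.0516). In APC RNAi its late days were also all above its early ones, at 25.9, 44.8 and 41.3 CPM against 15.8, 19.3 and 15.1 CPM, while in control late and early days overlapped.

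**Figure D1:**
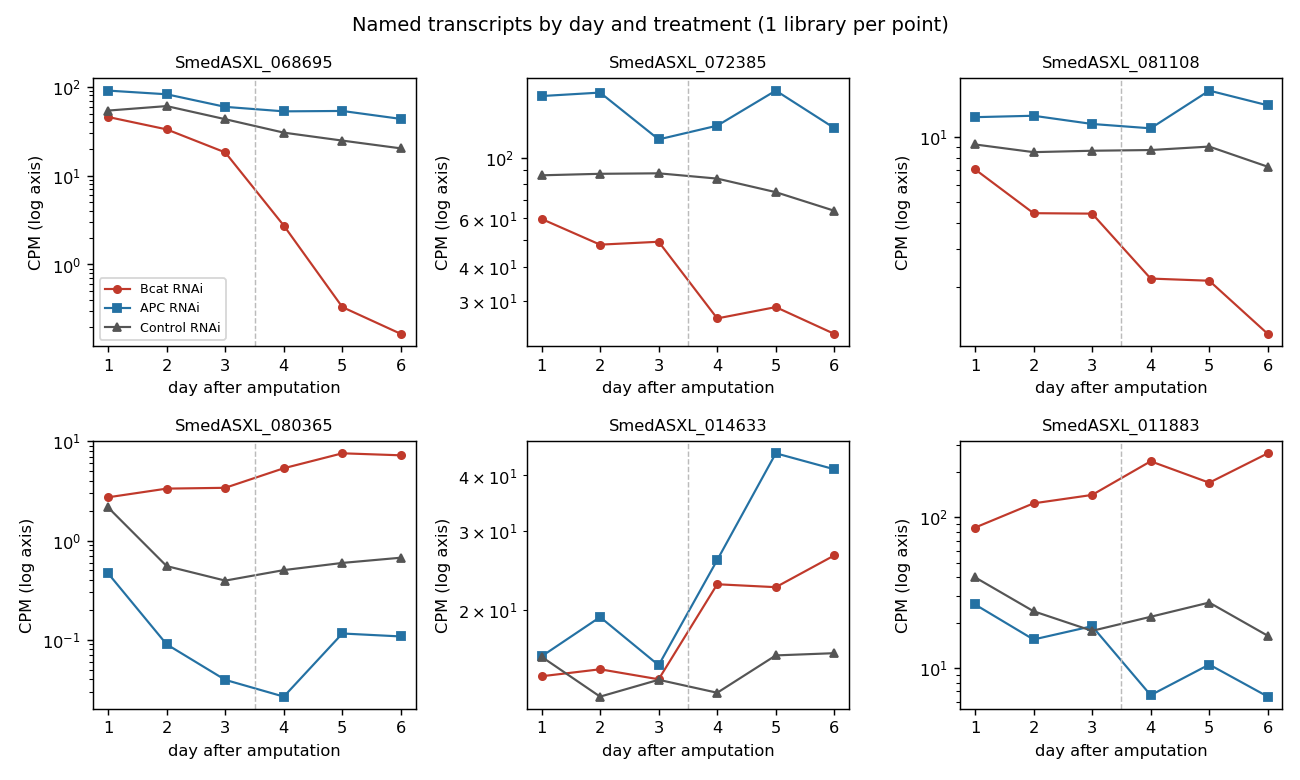
CPM (log axis) of 6 named transcripts against day after amputation, with 1 library per point, for Bcat RNAi, APC RNAi and Control RNAi; the dashed line parts early from late days. SmedASXL_068695 ends at 0.165 CPM in Bcat RNAi at day 6, against 43.5 CPM in APC RNAi and 20.3 CPM in control.

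The slope over days uses the order of the 6 days and found far more. In Bcat RNAi 1400 transcripts rose with day (3.95% of 35445) and 821 fell (2.32%), by the edgeR quasi-likelihood test of day as a number with adjusted p under 0.05. The changes were small for most: the fitted change from day 1 to day 6 had a median of 1.65-fold among those that rose and 1.44-fold among those that fell, and reached 2-fold for 344 and 139. The division between rising and falling moved with the scaling, to 1008 and 938 with RLE size factors and to 1140 and 1339 with TMM on library sizes summed again after the filter. A group of 926 rising and 802 falling transcripts was called in the same direction by 4 scalings, and 0 were called in opposite directions. Single libraries moved it as well. Leaving out day 5 gave 734 rising and 1138 falling transcripts, and leaving out day 3 gave 994 and 1206, so which direction led depended on these libraries. Leaving out day 1 gave 503 rising and 292 falling, 795 in all, of which 375 and 270 were among the transcripts called with all 6 days. Leaving out day 6 gave 545 and 268, 813 in all.

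The 2 steepest rises of at least 2 CPM and the 2 steepest falls were picked after their values were seen. SmedASXL_008433 had 0.181, 2.27, 3.52, 4.37, 8.73 and 9.16 CPM from day 1 to day 6, higher at each day than at the one before. By edgeR it gained 0.73 on the log2 scale with each day (SE 0.11, adjusted p = 0.00259), and it had 9 reads at day 1. SmedASXL_005730 had 0.461, 7.87, 5.72, 8.60, 16.9 and 19.7 CPM, a slope of 0.62 (SE 0.12, adjusted p = 0.0119, edgeR). Without day 1 the slope of SmedASXL_005730 was 0.41 (adjusted p = 0.00144) and that of SmedASXL_008433 was 0.53 (adjusted p = 3.26e-05), and without day 2 that of SmedASXL_005730 was 0.89. Both made their largest step, 3.39 and 3.98 on the log2 scale, between days 1 and 2. In control SmedASXL_008433 had 1.06 CPM at day 1 and 4.38 CPM at day 6, and SmedASXL_005730 had 8.62 CPM at day 1, 2.01 CPM at day 3 and 11.0 CPM at day 6. In APC RNAi SmedASXL_008433 stayed at or below 0.582 CPM at each day and SmedASXL_005730 at or below 2.29 CPM.

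The steepest fall over days was again SmedASXL_068695, with an edgeR slope of -1.51 on the log2 scale (SE 0.15, adjusted p = 0.000343). SmedASXL_018870 had 11.6, 1.36, 1.32, 2.09, 0.468 and 0.514 CPM from day 1 to day 6. Its slope was -0.85 (SE 0.14, adjusted p = 0.00439, edgeR), but late and early days overlapped and most of the loss lay between days 1 and 2. Without day 1 the slope was -0.38 and no longer past the threshold (adjusted p = 0.254). Control went the same way, with 11.2 CPM at day 1, 5.56 CPM at day 2 and 0.759 CPM at day 6, and APC RNAi more slowly, with 14.3, 13.9 and 3.64 CPM at those days.

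Day by day, the rising and falling transcripts took different courses. The account below covers the 229 rising and 101 falling transcripts with a slope past the threshold, at least 2-fold over the 5 day steps and at least 2 CPM on average; these limits were set after the slopes were seen. The median of the rising group, as log2 CPM relative to the mean of days 1 to 3, was -0.44, 0.12, 0.33, 0.48, 0.75 and 0.78 at days 1 to 6. It climbed most between days 1 and 2 and hardly at all between days 5 and 6. The median of the falling group was 0.37, -0.12, -0.24, -0.79, -0.63 and -1.18, with drops into days 2, 4 and 6 and a small return at day 5. Over all 35445 tested transcripts the same median lay between -0.0035 and 0.03 at every day.

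The groups were chosen on slopes through these same days, so a distance from all tested transcripts is in part given by the choice and was not tested. The largest single-day step fell between days 1 and 2 for 161 of the 229 rising transcripts (70.3%), against 22.4% of all tested transcripts, and between days 4 and 5 for 22 (9.61%). Over all 1400 rising transcripts these intervals held 55.6% and 27.8%, so the step into day 5 took a larger share there. Among the 101 falling ones it fell between days 3 and 4 for 32 (31.7%, against 17.2% of all tested), between days 5 and 6 for 31 (30.7%, against 22.4%) and between days 1 and 2 for 24 (23.8%). Over all 821 falling transcripts the order differed, with 40.9% between days 5 and 6, 27.5% between days 1 and 2 and 18.9% between days 3 and 4. At each of the 5 steps, 64 of the 229 (27.9%) and 18 of the 101 (17.8%) moved the same way, against 449 of all 35445 tested (1.27%). The day 5 library differed from its neighbours in make-up: transcripts below 1 CPM took 0.928% of its reads, against 1.27% at day 4 and 1.22% at day 6. In APC RNAi these transcripts took 0.648% at day 5, against 0.803% at day 4 and 0.967% at day 6. The median of the 101 falling transcripts also returned at day 5 in APC RNAi, with -0.36, -0.06 and -0.46 at days 4, 5 and 6. Control had no such return, with -0.38, -0.51 and -0.66. Any part of library make-up in the return at day 5 was not tested.

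**Figure D2:**
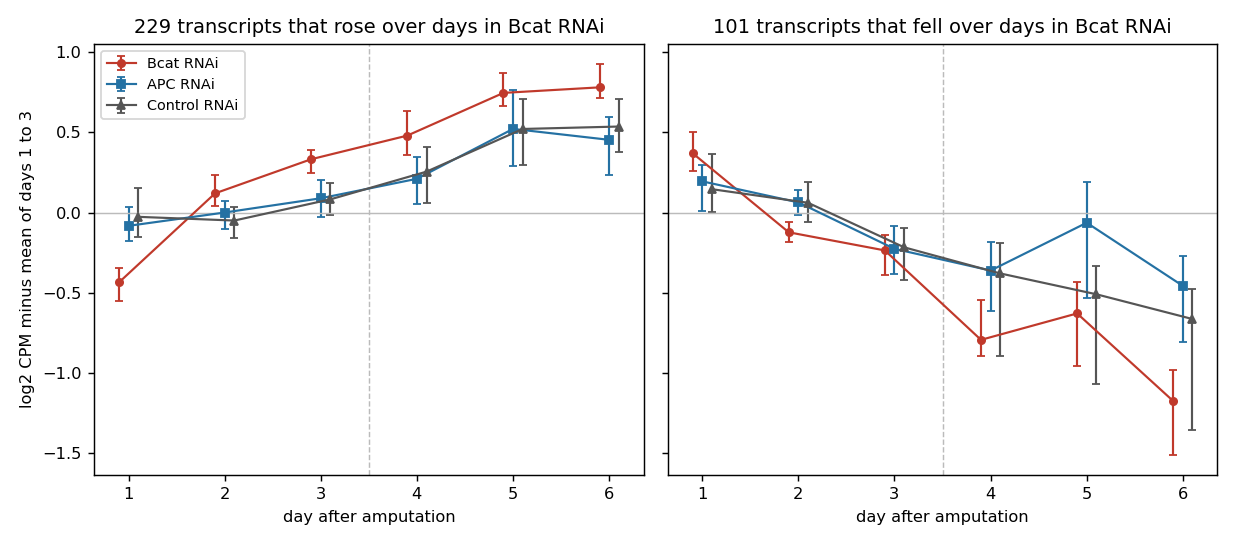
Median log2 CPM minus the mean of days 1 to 3 of the same treatment, by day after amputation, for the 229 rising and 101 falling transcripts; bars span the middle 50% of transcripts. At day 6 the rising group stands at 0.78 in Bcat RNAi, 0.45 in APC RNAi and 0.54 in control, and the falling group at -1.18, -0.46 and -0.66.

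**Figure D3:**
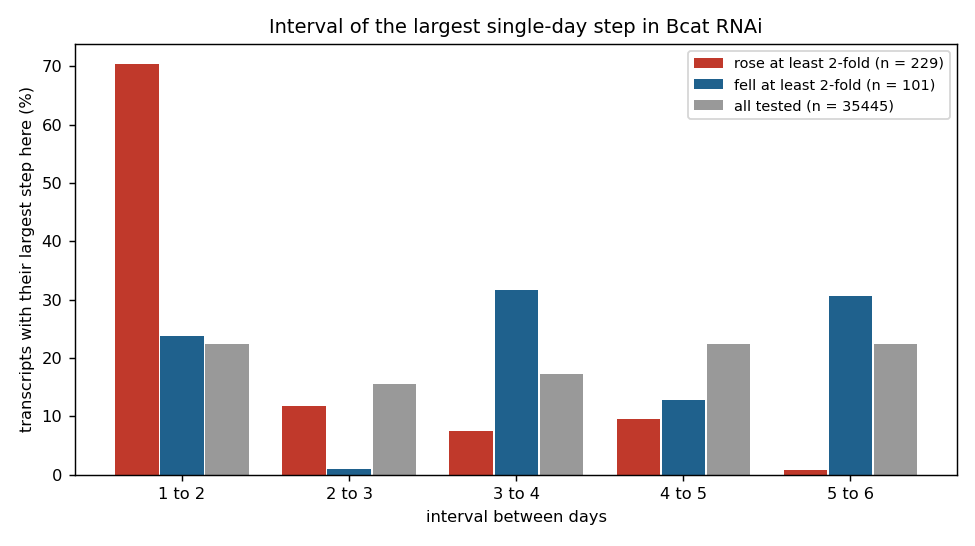
Share of transcripts (%) whose largest single-day step in the direction of their slope in Bcat RNAi fell in each interval between days, for 229 rising, 101 falling and all 35445 tested transcripts. The rising group is concentrated between days 1 and 2, at 70.3%. Both groups were chosen on slopes through the same days.

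Slopes were called far more often among transcripts with more reads. Of 17201 transcripts below 1 CPM, 49 rose and 18 fell, and of 5043 at 4 to 16 CPM 476 rose (9.44%) and 177 fell (3.51%). Of 2574 over 64 CPM, 175 rose (6.80%) and 261 fell (10.1%). Which direction led in this highest class depended on the scaling, since loess offsets gave 281 rising and 276 falling there. The median slope was 0.03 log2 units per day below 1 CPM and -0.01 over 64 CPM.

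The same transcripts were read in control and APC RNAi, whose libraries had no part in these calls. On its own, control had 1999 rising (5.44%) and 3502 falling (9.52%) transcripts of 36775, and APC RNAi had 201 (0.678%) and 241 (0.813%) of 29638. Of the 821 that fell in Bcat RNAi, 704 fell in control as well (85.7%, or 20.1% of the control list) and 0 rose there. Of the 1394 rising transcripts that were tested in control, 689 rose there (49.4%, or 34.5% of the control list) and 11 fell. Over all 33750 transcripts tested in both, 14.8% were called in control in the direction of their Bcat RNAi slope, called or not. In APC RNAi 144 of 1366 rose (10.5%, or 71.6% of the APC RNAi list) and 154 of 821 fell (18.8%, or 63.9%), and 2 and 4 were called the other way. Over all 29202 transcripts tested in both, 1.44% were called in APC RNAi in the direction of their Bcat RNAi slope, called or not.

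For transcripts of at least 2 CPM the slopes in Bcat RNAi correlated with r = 0.674 with those in control (n = 15153 transcripts) and with r = 0.574 with those in APC RNAi (n = 15152). Over all transcripts tested in both it was 0.395 with control (n = 33750) and 0.352 with APC RNAi (n = 29202). This is a description across transcripts, which share libraries and sequencing depth and are not independent. The 229 rising transcripts had a median slope of 0.23 log2 units per day in Bcat RNAi, 0.12 in APC RNAi and 0.14 in control, and the 101 falling ones -0.25, -0.11 and -0.16. The groups were chosen on the Bcat RNAi values, so a steeper median there follows from the choice. At day 1 the rising group stood at -0.44 in Bcat RNAi, -0.08 in APC RNAi and -0.03 in control. Day 1 is an end of the slope used for the choice, so a low day 1 in Bcat RNAi also follows in part from it.

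**Figure D4:**
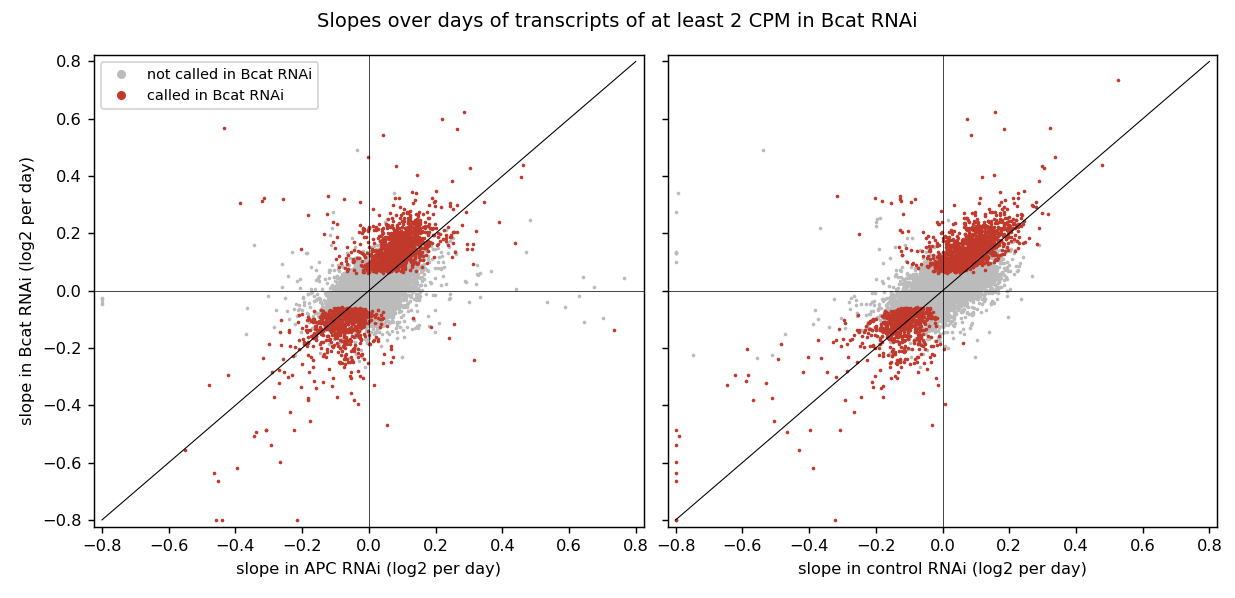
Slope over days in Bcat RNAi (log2 units per day) against the slope in APC RNAi and in control for transcripts of at least 2 CPM in Bcat RNAi; red points passed the slope test in Bcat RNAi and the diagonal marks equal slopes. Points beyond 0.8 (18 transcripts) are drawn at the edge, and most red points lie in the quadrants of equal sign.

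Whether the change between the periods differed from that of control was tested as an interaction over 12 libraries. No transcript passed (0 of 40459, edgeR; 1428 had an unadjusted p under 0.05, and DESeq2 called 13). With day as a block, which pairs the libraries of the same day, 12 transcripts had a more positive and 7 a more negative change in Bcat RNAi than in control, 19 in all or 0.047%. Without single Bcat RNAi libraries the fit with no block called 5 (without day 1), 1 (day 3), 1 (day 4) and 7 (day 5). The transcripts named here had the smallest unadjusted p and did not pass.

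SmedASXL_068695 fell in Bcat RNAi, as given above, and in control had 30.5, 24.8 and 20.3 CPM at days 4, 5 and 6, against 54.0, 60.7 and 43.2 CPM at days 1, 2 and 3. Bcat RNAi minus control, the change was -3.93 on the log2 scale (SE 0.62, adjusted p = 0.197, edgeR), and -3.98 with the block (SE 0.44, adjusted p = 0.00308; 7.86e-09 to 0.652 over 8 alternatives). The adjusted p was 0.0333, 0.0172 and 1.11e-05 without days 1, 3 and 4 of Bcat RNAi. For SmedASXL_072385 the difference was -0.83 (SE 0.14, adjusted p = 0.232), and -0.82 with the block (SE 0.1, adjusted p = 0.00651; 0.00651 to 0.863 over 8 alternatives).

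SmedASXL_012786 and SmedASXL_014728 had the smallest p in the other direction, and neither passed with the block (adjusted p = 0.14 each; both passed in 2 of 8 alternatives). SmedASXL_012786 had 1966, 1931 and 2304 CPM at days 4, 5 and 6, against 1424, 1611 and 1588 CPM at days 1, 2 and 3 of Bcat RNAi. In control it had 1284, 1198 and 941 CPM, against 1588, 1493 and 1301 CPM. Late and early days were apart in both treatments and in opposite directions. The difference in change was 0.75 (SE 0.15, adjusted p = 0.698, edgeR). SmedASXL_014728 had late and early means of 1638 CPM ± 149 and 1244 CPM ± 55.8 in Bcat RNAi, and of 938 CPM ± 131 and 1192 CPM ± 131 in control (SD, n = 3 each), with a difference of 0.72 (SE 0.15, adjusted p = 0.698, edgeR).

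Against APC RNAi, the knockdown on the other side of the pathway, 6 of 37080 transcripts (0.0162%) changed differently between the periods, 3 each way (edgeR). With day as a block it was 97 (0.262%), of which 22 were more positive and 75 more negative in Bcat RNAi. Without single libraries the count of 6 became 11 (Bcat RNAi day 3 or day 5), 3 (Bcat RNAi day 6) and 58 (APC RNAi day 3).

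SmedASXL_011883 differed most in the positive direction. In Bcat RNAi it had 234.8, 169.3 and 265.2 CPM at days 4, 5 and 6, against 85.3, 123.6 and 140.5 CPM at days 1, 2 and 3. In APC RNAi it had 6.61, 10.6 and 6.47 CPM, against 26.4, 15.5 and 19.0 CPM. Late days were all higher in Bcat RNAi and all lower in APC RNAi, a difference in change of 2.34 log2 units (SE 0.3, adjusted p = 0.00347, edgeR). In control late and early days overlapped, with 21.8 CPM ± 5.41 and 27.1 CPM ± 11.5 (SD, n = 3 each). SmedASXL_011884, whose identifier is the next in the table's numbering, had 164.8 CPM ± 37.0 late and 84.6 CPM ± 21.0 early in Bcat RNAi, and 6.01 CPM ± 1.65 and 14.1 CPM ± 3.31 in APC RNAi. Its difference was 2.23 (SE 0.29, adjusted p = 0.00347, edgeR). Both passed without each of the 12 libraries in turn. Neither passed when at least 1 CPM in 3 libraries was required (adjusted p = 0.0757 each). The remaining positive call was SmedASXL_011882 (1.54, SE 0.25, adjusted p = 0.0377, edgeR). All 3 positive calls thus have consecutive identifiers, and whether they share sequence, and so reads, is not known.

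SmedASXL_068695 differed most in the negative direction, by -4.29 (SE 0.6, adjusted p = 0.00805, edgeR), and its APC RNAi values were 53.0, 53.5 and 43.5 CPM at days 4, 5 and 6, against 90.7, 82.4 and 59.5 CPM at days 1, 2 and 3. Its adjusted p was 0.0562 with loess offsets, 0.148 with at least 1 CPM in 3 libraries and 0.286 with DESeq2. SmedASXL_081108 had 2.19, 2.14 and 1.21 CPM at days 4, 5 and 6, against 7.08, 4.42 and 4.40 CPM at days 1, 2 and 3 of Bcat RNAi. In APC RNAi it had 11.0, 16.5 and 14.1 CPM, against 12.4, 12.6 and 11.5 CPM, with overlapping periods. Its difference was -1.67 (SE 0.28, adjusted p = 0.0377, edgeR). It no longer passed without Bcat RNAi day 6 (0.119) and without days 1, 2, 5 and 6 of APC RNAi (0.0671, 0.13, 0.0899 and 0.106). The remaining negative call, SmedASXL_072386, had a difference of -1.12 (SE 0.17, adjusted p = 0.0139, edgeR).

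A bend in the course, tested as a squared term of day, was called for 10 of 35445 transcripts (0.0282%, edgeR). The term was positive for 9 and negative for 1, which by itself shows neither a dip nor a hump. Of the 10, 6 had a mean under 2 CPM. SmedASXL_080397 had 4.65, 2.2, 1.56, 1.43, 1.99 and 2.79 CPM from day 1 to day 6, lowest at day 4, with a curvature of 0.21 log2 units per day squared (SE 0.03, adjusted p = 0.0417, edgeR). SmedASXL_072425 had 15.2, 7.41, 6.00, 6.33, 6.88 and 8.22 CPM, with a curvature of 0.14 (SE 0.02, adjusted p = 0.0417, edgeR). Both dips start from a high day 1, and without day 1 neither passed (adjusted p = 1 each). Without day 5 the adjusted p was 0.0663 for each, and without day 6 it was 0.0943 and 0.0868. The negative term was that of SmedASXL_068695, which fell at every step and whose loss per day was steepest between days 3 and 5. Its curvature was -0.43 (SE 0.06, adjusted p = 0.0417, edgeR) and did not pass without day 1 or day 5 (adjusted p = 0.531 and 0.0663). SmedASXL_016339 came next without passing (adjusted p = 0.0713; 0.0486 without day 2), with 18.3 CPM at day 1, 27.7 CPM at day 5 and 23.9 CPM at day 6. Leaving out day 2, 3, 4 or 5 gave 210, 144, 115 and 0 calls in that order.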

How the data were processed

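PolyA RNA was sequenced from regenerating fragments. The authors deposited raw read counts per SmedASXL transcript as whole numbers; bcl2fastq 1.8.3, Bowtie2 2.2.4 and DESeq2 are named in the submitters' processing notes, and counting rule and strand are not given in the sources used here. Counts of near-identical transcripts are therefore uncertain. The rows total reads and unaligned reads were left out; in all 18 libraries the counts sum to their difference.

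Analysis used R 4.3.3, edgeR 4.0.16, limma 3.58.1 and DESeq2 1.42.0. filterByExpr by period kept 35445 transcripts; the 47510 left out held 0.329% of Bcat RNAi reads. TMM factors and the quasi-likelihood test (glmQLFit, glmQLFTest) were applied to the 6 Bcat RNAi libraries (period, day, or day and its square) and to 12 libraries for interactions, with Benjamini-Hochberg adjustment over all transcripts tested and a threshold of 0.05. SEs are the log2 change over the square root of F. CPM uses TMM factors of all 18 libraries; day steps are on log2 CPM, prior count 2. Library measures were compared by exact permutation. Code was tested on simulated counts with planted changes. Transcripts without a planted change gave 25 false calls for late against early, 11 for the interaction with control, 12 for the slope and 19 for curvature. In each of these simulations the false calls were a larger share of all calls than the threshold of 0.05. Changes were planted only in transcripts of at least 1 CPM, so the shares called do not cover those below it. Of planted late-against-early changes of 0.5, 1 and 2 log2 units (67, 67 and 66 transcripts), 38.8%, 80.6% and 100% were called.

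The labels give the pairing: same-numbered libraries share a day. Correlations of same-day deviations from period means were 0.0117 to 0.217 with control and 0.0556 to 0.383 with APC RNAi. Every pair of Bcat RNAi libraries differed beyond sampling noise (chi-square over its degrees of freedom at least 5.21).

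Members, lists and tests were chosen with earlier results of these data known. Named per direction were, between periods, the transcript with the largest change and the one with the highest mean CPM among those at least 2-fold, with periods apart. For each interaction and curvature the 2 largest were named, and for the course the largest step. All were past the threshold with a mean of at least 2 CPM; where too few passed, the smallest unadjusted p decided. The rule asked only for counts of slopes, and the slope names were added after their values were seen. SmedASXL_011882 and SmedASXL_072386 are given only because their identifiers adjoin those of named transcripts. Gene lists could not be matched and were not used.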

Additional observations from a re-analysis of the deposited data

Results flagged for a closer look

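The change between days 1 to 3 and days 4 to 6 was compared between Bcat RNAi and APC RNAi by a direct test (edgeR interaction, 12 libraries). It differed for 6 transcripts, and the 4 with the largest differences are given here. The difference was 2.34 log2 units for SmedASXL_011883 (adjusted p = 0.00347) and 2.23 for SmedASXL_011884 (adjusted p = 0.00347), higher on all late days in Bcat RNAi and lower on all late days in APC RNAi. It was -4.29 for SmedASXL_068695 (adjusted p = 0.00805), which was lower on all late days in both, and -1.67 for SmedASXL_081108 (adjusted p = 0.0377), lower on all late days in Bcat RNAi with overlapping periods in APC RNAi. SmedASXL_011883 and SmedASXL_011884 passed in each of 12 fits that left out 1 library, with differences of 2.09 to 2.58 and 2.04 to 2.45. SmedASXL_068695 also passed in each, at -6.35 to -3.79. None of the 4 passed when at least 1 CPM in 3 libraries was required.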

How the results depend on the processing

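Late against early in Bcat RNAi gave 9 calls as reported, 60 with RLE size factors, 2 with loess offsets, 545 with no filter, 0 with at least 1 CPM in 3 libraries, 466 with DESeq2, 71 with all 18 libraries, 247 for days 5 and 6 against days 1 and 2, and 2 to 403 without single libraries. Library sizes summed after the filter, an alternative added after seeing the data, gave 2. The interaction with control gave 0 as reported, 1 with RLE, 36 with no filter, 13 with DESeq2, 1 with all 18 libraries, 19 with day as replicate block, 26 as a difference of slopes (added later) and 0 to 7 without single libraries. The interaction with APC RNAi gave 6, then 3 with loess offsets, 66 with no filter, 1 with at least 1 CPM in 3 libraries, 14 with DESeq2, 97 with the replicate block, 19 as a difference of slopes (added later) and 3 to 58 without single libraries. Curvature gave 10, then 181 with RLE, 442 with no filter, 0 with at least 1 CPM in 3 libraries, 138 with all 18 libraries, 18 with library sizes summed after the filter and 0 to 210 without single libraries. The slope stayed between 1570 and 3106 under 7 other settings and between 795 and 2200 without single libraries. Its share of rising calls was 63.0% as reported, 64.2% with all 18 libraries, 57.3% with loess offsets, 51.8% with RLE and 50.3% with no filter. It was 52.2% with at least 1 CPM in 3 libraries (1621 and 1485), 46.9% with DESeq2 (1269 and 1436) and 46.0% with library sizes summed after the filter. The share of reads in the 100 most abundant transcripts was higher late by 0.0883 percentage points, and by -0.138 to 0.419 without single libraries; for the 1000 most abundant the difference was -0.65. The causes were not tested. No transcript named for its change, slope or curvature changed direction under the settings in which it was read. The difference of slopes was read only as counts, and SmedASXL_011882 and SmedASXL_072386 were not followed over the settings. At 41832966 to 57679076 aligned reads, transcripts below 1 CPM were rarely called for a slope. The lowest mean in Bcat RNAi was 1.57 CPM among the late-against-early calls and 0.441 CPM among the curvature calls. With 3 pooled libraries a period the spread between animals is unknown.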

Other observations

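The later a Bcat RNAi library was taken, the further it stood from the day 1 library. The SD of the log2 CPM difference from the day 1 library, over 18244 transcripts of at least 1 CPM, was 0.312 for day 2, 0.352 for day 3, 0.406 for day 4, 0.409 for day 5 and 0.457 for day 6. Between neighbouring days it was lowest for day 3 against day 2, at 0.201, and 0.237 for day 4 against day 3, 0.302 for day 5 against day 4 and 0.262 for day 6 against day 5.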
